A study of Mus musculus with 12 samples.

Results

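The insulin-like growth factor axis was examined in mouse mammary tissue and mammary tumor cell lines through 9 genes, namely the ligand gene Igf1, the receptor genes Igf1r and Igf2r, and the binding protein genes Igfbp2 to Igfbp7. All probe sets that the array platform assigns to these 9 genes, and to no other gene, were taken, which gave 21 probe sets, out of 20380 probe sets for 12393 genes. Every array of the study was used: the 3 cell lines, 3 WAP-SVT/t tumors, 3 WAP-SVT/t glands and 3 NMRI glands, 12 arrays in all. Each WAP-SVT/t animal was a female of the NMRI strain that makes the simian virus 40 T and t antigens selectively in mammary epithelium, which the Wap milk protein promoter directs. The NMRI females served as the normal counterpart, and both sets of glands were taken at lactation day 1. No label gives the age of a mouse or of a tumor, or a lactation day for the tumors. In comparisons of tumors with glands, tumor and lactation state therefore cannot be told apart. The lines were ME-B-T/t, which the labels call retransformed, ME-B, which they call a revertant, and ME-A. All are described as derived from breast cancer, with 1 array per line. The labels number the gland samples and name the tumors, and say no more of separate animals, so the p-values measure the spread between these samples, part of which may be technical.

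In the body, IGF1 is made largely by liver under growth hormone, and also locally by stromal cells of many tissues, the mammary gland among them. It acts through the receptor tyrosine kinase IGF1R, while IGF2R carries mannose 6-phosphate tagged proteins to lysosomes and removes IGF2. The high-affinity binding proteins hold the ligands in blood and tissue and can hinder or prolong their action. In the rodent mammary gland the axis is known for its part in duct growth and in the survival of milk-secreting cells, and IGFBP5 for its rise at involution, the regression of the gland after weaning.

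The promoters of Igfbp2, Igfbp3 and Igfbp5 are shown because these genes had the largest differences between tumors and glands or between lines among the binding proteins, and because Igfbp2 and Igfbp5 are next to each other among the protein-coding genes of mouse chromosome 1. Each runs from 250 bases before to 50 bases after the gene's start, is written 5′ to 3′ on the gene's strand, and comes from RefSeq on GRCm38.p6. The region of Igfbp2 is chr1:72824230-72824529 on the plus strand, that of Igfbp3 is chr11:7213874-7214173 on the minus strand, and that of Igfbp5 is chr1:72874816-72875115 on the minus strand. Igfbp2 had 2 starts in the table, of which 1 is shown. Capitals mark matches to either of a pair of motifs. The first is the core of a GC box, written GGGCGG. The other stands for a TATA box and is written TATANA. Both strands were searched, and both motifs were chosen after the promoters had been looked at.
Igfbp2: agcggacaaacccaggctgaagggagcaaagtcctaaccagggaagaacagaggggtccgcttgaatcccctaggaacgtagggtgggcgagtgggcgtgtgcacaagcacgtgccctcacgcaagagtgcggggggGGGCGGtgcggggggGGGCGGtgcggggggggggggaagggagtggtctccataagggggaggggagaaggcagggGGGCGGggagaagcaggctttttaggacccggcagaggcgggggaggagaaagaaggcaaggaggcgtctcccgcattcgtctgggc
Igfbp3: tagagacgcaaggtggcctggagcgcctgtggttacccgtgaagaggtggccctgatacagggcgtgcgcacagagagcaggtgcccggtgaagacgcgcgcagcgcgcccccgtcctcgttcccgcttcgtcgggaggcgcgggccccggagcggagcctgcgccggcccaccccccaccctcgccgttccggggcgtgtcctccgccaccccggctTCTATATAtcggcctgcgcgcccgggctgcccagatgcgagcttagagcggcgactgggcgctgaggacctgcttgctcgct
Igfbp5: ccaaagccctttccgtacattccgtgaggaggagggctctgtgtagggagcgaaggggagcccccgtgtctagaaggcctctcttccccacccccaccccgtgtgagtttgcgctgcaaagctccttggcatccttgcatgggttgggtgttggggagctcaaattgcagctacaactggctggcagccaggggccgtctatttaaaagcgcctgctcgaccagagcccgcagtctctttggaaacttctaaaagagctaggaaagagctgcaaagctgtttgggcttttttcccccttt
The Igfbp2 promoter held 3 matches to GGGCGG, which began 113, 98 and 37 bases before the start, and 0 to TATANA. The Igfbp3 promoter held 3 overlapping matches to TATANA within 32 bases before the start and 0 to GGGCGG, and the Igfbp5 promoter held neither. The Igfbp5 promoter does hold tatttaaa, which TATANA does not match, and variants of either motif were not searched. Of 32851 promoters of the same length, 35.7% held GGGCGG and 24.7% held TATANA. A match is a run of letters and not a measured site.

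Signals below are scaled array intensities, and those under a floor of 57.5 were set to it for log2 values and folds. Errors are ± SD for means of n = 3 arrays and ± standard error for log2 differences. The number of arrays limits the precision. A measure of RNA integrity differed between arrays. The ratio of 3-prime to 5-prime Gapdh control signals lay between 0.753 and 0.949 in the lines, at 5.63, 0.982 and 0.969 in tumors 1 to 3, between 2.49 and 22.5 in WAP-SVT/t glands and between 2.28 and 40.3 in NMRI glands. Markers of cell types differed as well. The 11 luminal epithelium markers had a mean log2 signal of 6.22 in ME-B-T/t and 6.49 in ME-B, close to the floor, with signals of 13.2 and 9.05 for Epcam and 12.8 and 14.9 for Elf5 in these lines, against 11.12 in ME-A, 10.48 to 10.93 in tumors, 10.65 to 10.95 in WAP-SVT/t glands and 10.87 to 11.49 in NMRI glands. These lines are labelled as breast cancer cell lines. Not every marker was at the floor in them: Krt19 read 108 in ME-B-T/t and 931 in ME-B, Krt8 read 107 and 199, Cldn3 read 159.6 and 67.3, and Spint1 read 103 and 89.5. The 11 adipocyte markers had means of 6.12 to 6.44 in the lines and 8.98, 6.77 and 6.71 in tumors 1 to 3, against 10.07 to 10.91 in WAP-SVT/t glands and 9.78 to 10.16 in NMRI glands. The 20 skeletal muscle markers stood at 6.26 to 6.28 in the lines. Tumor 1 had 9.31, and the other tumors had 6.20 and 6.06. The glands had 9.78 in WAP-SVT/t gland 3, 6.57 and 6.72 in the other WAP-SVT/t glands, and 8.99 to 9.87 in NMRI glands. The 10 basal and myoepithelial markers had means of 6.71 to 7.66 in the lines, 6.83 to 7.42 in tumors, 8.74 to 9.04 in WAP-SVT/t glands and 8.57 to 9.18 in NMRI glands. The 16 macrophage and myeloid markers had 6.37 to 6.50, 9.24 to 9.33, 8.78 to 9.57 and 8.35 to 8.66 in the same order. In such bulk samples, fewer cells of a type and less RNA per cell cannot be told apart.

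Igfbp3 rose in tumors, and no other member passed the test through the probe set that stands for its gene. Igfbp3 entered the test only through the 3 tumors, since at least 3 arrays had to exceed the median signal of 139.9 and no gland or line did, so its calls and the counts that hold it are limited by that filter. With no filter Igfbp3 passed in tumors against WAP-SVT/t glands (adjusted p = 0.0371) and against NMRI glands (adjusted p = 0.00384), and did not pass in lines against tumors (adjusted p = 0.0890). Where a gene has several, that is the probe set whose log2 signal averages highest on the 12 arrays. A member was called at an adjusted p under 0.05 from limma with Benjamini-Hochberg adjustment over all probe sets tested. In tumors against WAP-SVT/t glands, 1 of 9 members was called, with 2.48% of all genes called. In tumors against NMRI glands 1 of 9 was called, beside 23.5% of all genes, so the members' share was under the share of all genes in that comparison. In WAP-SVT/t glands against NMRI glands 0 of 9 were called, beside 9.27% of all genes. An unadjusted p under 0.05 was found for 1 of the 9, against 2002 of all 7897 genes tested. In cell lines against tumors 1 of 7 tested members was called, Igfbp3 again but lower, beside 2.37% of all genes.

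**Figure D1:**
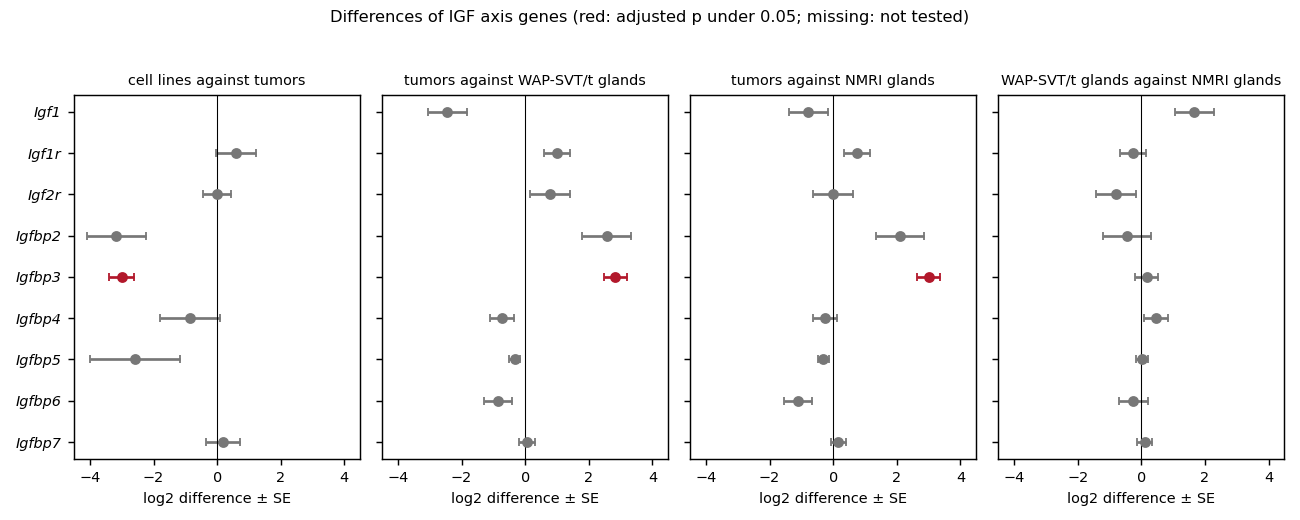
Log2 differences ± standard error (x axis) of the probe set that stands for each of the 9 genes, in 4 comparisons of 3 against 3 arrays. Points right of 0 are higher in the first-named group, red points were called, and Igf1 and Igfbp6 were not tested in the lines. Igfbp3 is the red point in 3 comparisons.

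Counted over all probe sets, 1 of 17 was called in tumors against WAP-SVT/t glands, with 2.31% of all probe sets called. In tumors against NMRI glands 2 of 17 were called, beside 23.0% of all probe sets. In WAP-SVT/t glands against NMRI glands 0 of 17 were called, beside 9.16% of all, and 4 had an unadjusted p under 0.05, as had 2920 of all 11650 probe sets. In lines against tumors 1 of 14 was called, beside 2.37% of all. The 4 probe sets not tested in tissue were too dim: 1452108_at of Igf1r, 1421991_a_at of Igfbp4, and 1423585_at and 1437804_at of Igfbp7. The members' median log2 difference was 0.06 in tumors against WAP-SVT/t glands, beside -0.00 over all genes, -0.02 beside 0.03 in tumors against NMRI glands, 0.02 beside 0.01 in WAP-SVT/t glands against NMRI glands, and -0.86 beside -0.01 in lines against tumors. The 2 comparisons with NMRI glands share those 3 arrays, and the tumors and the WAP-SVT/t glands each enter more than 1 comparison.

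**Figure D2:**
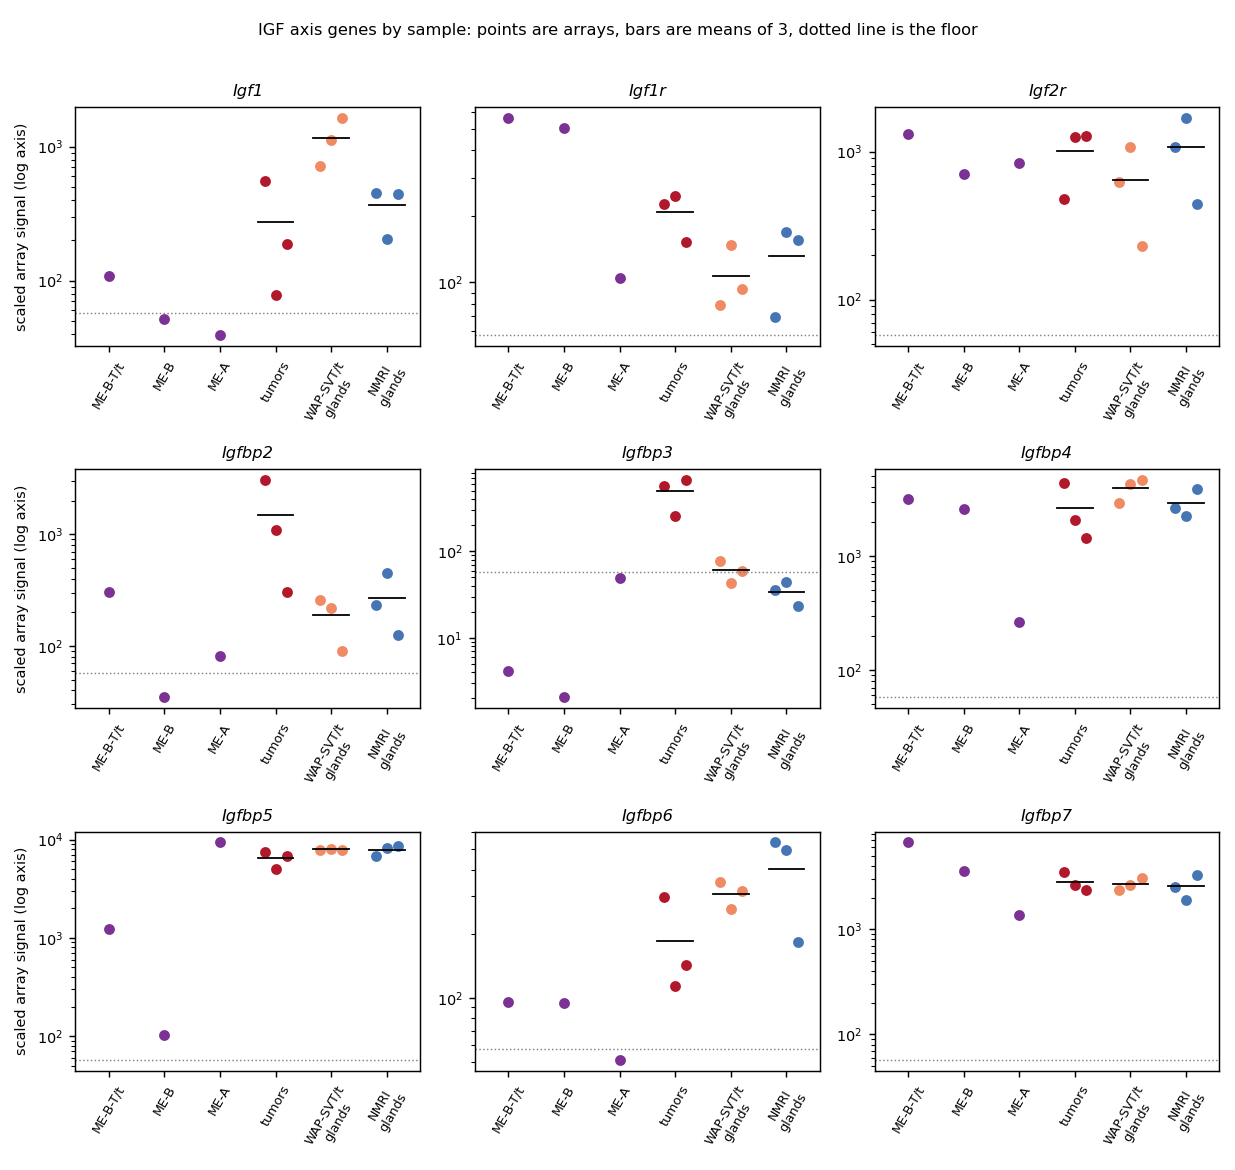
Scaled signal on a log axis (y) of the probe set that stands for each of the 9 genes in the 3 lines (1 array each) and 3 tissue groups (3 arrays each). Points are arrays, bars are arithmetic means of 3 and the dotted line is the floor of 57.5. The 3 tumors stand above all other arrays for Igfbp3, and ME-B stands far below ME-A and the tissues for Igfbp5.

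The ligand gene Igf1 had its highest signals in WAP-SVT/t glands. Its probe set 1437401_at read 551, 77.6 and 189 in tumors 1 to 3, against 722, 1119.8 and 1636 in WAP-SVT/t glands 1 to 3 and 452, 206 and 440.1 in NMRI glands 1 to 3. All 3 WAP-SVT/t glands were above every tumor and every NMRI gland, while tumors and NMRI glands overlapped. The difference of tumors from WAP-SVT/t glands was -2.45 ± 0.62 (5.47-fold lower, adjusted p = 0.0775) and that of WAP-SVT/t glands from NMRI glands was 1.67 ± 0.62 (3.19-fold higher, adjusted p = 0.124), so neither passed. Between tumors and NMRI glands the difference was -0.78 ± 0.62 (adjusted p = 0.397). From the lowest mean to the highest the order was lines, tumors, NMRI glands and WAP-SVT/t glands, with no call between tumors, NMRI glands and WAP-SVT/t glands.

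Both further Igf1 probe sets ran the same way. For 1452014_a_at the difference of tumors from WAP-SVT/t glands was -2.21 ± 0.51 (adjusted p = 0.0511), and for 1419519_at it was -1.31 ± 0.34 (adjusted p = 0.0863). Over the 12 arrays the 3 probe sets correlated pairwise at r = 0.89 to 0.98, as a description of arrays that share tissue and scaling. Tumor 1, the highest of the tumors by all 3 probe sets, was also the tumor with the high adipocyte and muscle markers. Without tumor 1 the fall of 1437401_at from WAP-SVT/t glands passed (-3.18, adjusted p = 0.0102), as did that of 1452014_a_at (-2.70, adjusted p = 0.0166), and so did the rise of 1437401_at in WAP-SVT/t over NMRI glands (1.67, adjusted p = 0.0498). In tumors against WAP-SVT/t glands 1452014_a_at passed in 4 of 11 other settings (adjusted p = 0.0331 to 0.0489). With the sample number of the glands as a block it did (adjusted p = 0.0369), as did 1419519_at (adjusted p = 0.0494). With the Gapdh ratio as a covariate the rise of 1437401_at in WAP-SVT/t over NMRI glands passed (1.79, adjusted p = 0.0407).

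In the lines, 1437401_at read 108 in ME-B-T/t, 51.6 in ME-B and 39.2 in ME-A, so that ME-B and ME-A were under the floor. It was not tested in lines against tumors. Of the Igf1 probe sets, 1419519_at alone was tested there, and it read 149, 45.7 and 111 in ME-B-T/t, ME-B and ME-A, against 178, 146 and 114 in tumors 1 to 3 (log2 difference -0.55 ± 0.41, adjusted p = 0.531). Its ranges overlapped. The adipocyte markers moved with Igf1 in part. Among the tissue arrays they were lowest in tumors 2 and 3, intermediate in tumor 1 and highest in WAP-SVT/t gland 3. That gland also had the highest Igf1 signal. Tumor 1, however, had a lower marker mean (8.98) than every NMRI gland (9.78 to 10.16) and a higher Igf1 signal (551) than each of them (206 to 452). Of the 9 adipocyte markers tested, 0 rose and 6 fell in tumors against WAP-SVT/t glands, Adipoq and Fabp4 among them, while 0 of 9 were called in WAP-SVT/t against NMRI glands. The 20 fibroblast and matrix markers had means of 10.77, 9.74 and 9.49 in tumors 1 to 3. They had 10.01 to 10.46 in WAP-SVT/t glands and 9.64 to 9.96 in NMRI glands. By this list tumor 1 was above every NMRI gland, as for Igf1, but also above every WAP-SVT/t gland, unlike Igf1. The part of either marker list in the Igf1 values was not tested.

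**Figure D3:**
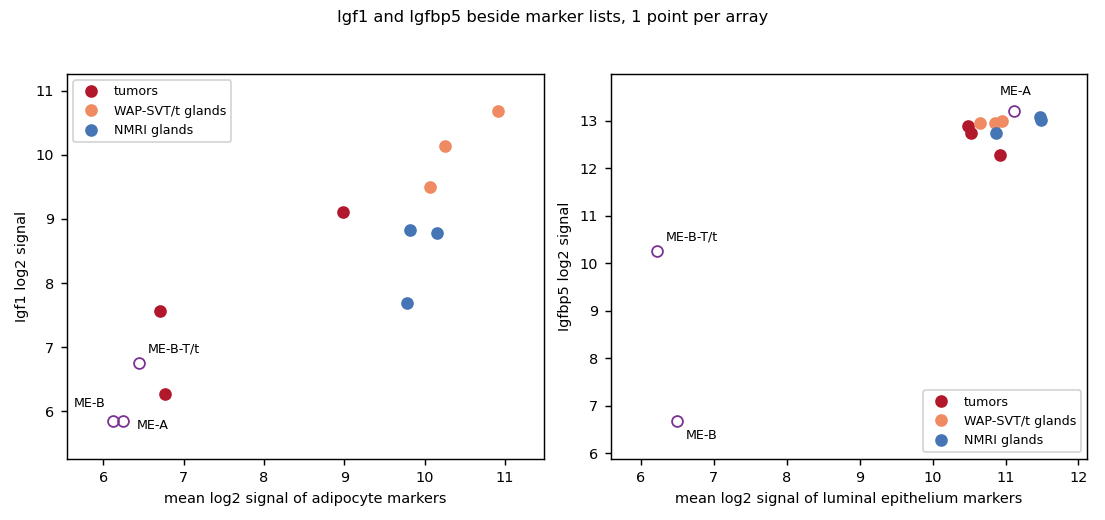
Log2 signal of Igf1 (left, probe set 1437401_at) against the mean log2 signal of 11 adipocyte markers, and of Igfbp5 (right, probe set 1452114_s_at) against that of 11 luminal epithelium markers, 1 point per array. Open circles are the lines. On the left, tumor 1 lies between the glands and the other tumors along the x axis but above the 3 NMRI glands along the y axis. On the right, ME-B and ME-B-T/t lie apart from all other arrays on the right.

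By the probe set that stands for it, the receptor gene Igf1r had higher signals in 2 of the lines than in any tissue. That probe set, 1426565_at, read 229, 247 and 153 in tumors, against 78.8, 148 and 93.5 in WAP-SVT/t glands and 69.5, 170.2 and 157 in NMRI glands. Each tumor was above every WAP-SVT/t gland, and tumors and NMRI glands overlapped. The log2 difference of tumors from WAP-SVT/t glands was 1.00 ± 0.40 (2.00-fold, adjusted p = 0.271), that of tumors from NMRI glands 0.74 ± 0.40 (adjusted p = 0.204), and that of WAP-SVT/t from NMRI glands -0.26 ± 0.40 (adjusted p = 0.737). None passed. ME-B-T/t and ME-B, at 563 and 505, were above every tissue array, while ME-A, at 105, was within the glands' range. The lines as a class differed from tumors by 0.59 ± 0.64 (adjusted p = 0.674). Without ME-A that difference was 1.37 and passed (adjusted p = 0.0364), with the spread then estimated from 2 lines and 3 tumors. These 2 lines share the name ME-B, and the labels revertant and retransformed point to a shared lineage. Their spread may therefore understate that between independent lines. The dim second probe set, 1452108_at, was not tested and agreed poorly with the first (r = 0.31). It read 77.2 in ME-B-T/t, 102 in ME-B and 85.2 in ME-A, against 34.4 to 47.8 in tumors, 33.0 to 143 in WAP-SVT/t glands and 29.5 to 84.4 in NMRI glands, so WAP-SVT/t gland 2, at 143, was above every line.

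Igf2r, the lysosomal transport receptor, had 2 probe sets that agreed poorly over the 12 arrays (r = 0.38). The first, 1424112_at, read 477, 1262 and 1266 in tumors, against 623, 1075 and 229 in WAP-SVT/t glands and 1068, 1687 and 444 in NMRI glands, and all groups overlapped. The second, 1424111_at, read 814, 569 and 544 in tumors, against 463, 478 and 347 in WAP-SVT/t glands and 714, 628 and 698 in NMRI glands. By the second, WAP-SVT/t glands were below every other tissue array. Its difference was 0.57 ± 0.25 in tumors against WAP-SVT/t glands (adjusted p = 0.309) and -0.67 ± 0.25 in WAP-SVT/t against NMRI glands (adjusted p = 0.119), and neither passed. For 1424112_at, the array with the highest Gapdh ratio in each tissue group was also the lowest of that group. With that ratio as a covariate, the tumor difference of 1424112_at from NMRI glands was -1.41 and passed (adjusted p = 0.0217), against -0.02 ± 0.63 without it. In ME-B-T/t, ME-B and ME-A the first probe set read 1309.6, 707 and 837 and the second 1252, 388 and 431, so that ME-B-T/t was the highest line by both. The lines as a class differed from tumors by 0.01 ± 0.44 (adjusted p = 0.994) and -0.09 ± 0.47 (adjusted p = 0.940).

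Igfbp3, which encodes the main carrier of IGFs in blood, was under or near the floor everywhere but in tumors. Its only probe set, 1423062_at, read 564, 258 and 667 in tumors, against 78.4, 42.7 and 59.7 in WAP-SVT/t glands and 35.5, 43.9 and 23.2 in NMRI glands. The lowest tumor was thus above the highest gland, all NMRI glands were under the floor, and so was 1 of the WAP-SVT/t glands. In tumors the signal was higher than in WAP-SVT/t glands by 2.83 ± 0.36 on the log2 scale (7.12-fold, adjusted p = 0.00368), with all 3 tumors above all 3 glands. Against NMRI glands it was at least 7.99-fold higher (3.00 ± 0.36, adjusted p = 0.000267).

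WAP-SVT/t glands and NMRI glands were not called apart for Igfbp3 (0.17 ± 0.36, adjusted p = 0.818). In the lines it read 4.17 in ME-B-T/t, 2.04 in ME-B and 49.8 in ME-A, all under the floor. In lines against tumors it was at least 7.99-fold lower (-3.00 ± 0.39, adjusted p = 0.0111). That call was lost without tumor 1 (-2.85, adjusted p = 0.0616) and without ME-B (-3.00, adjusted p = 0.0593). It was also lost with no filter, as given above, and with the Gapdh ratio as a covariate (-2.83, adjusted p = 0.0761). The calls against both kinds of gland held without each array in turn, at adjusted p = 0.00294 to 0.0163 against WAP-SVT/t glands and 0.000177 to 0.00193 against NMRI glands.

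Igfbp2, whose product binds both IGF ligands and is made in many epithelia, differed widely among the tumors. Its probe set 1454159_a_at read 3054, 1104 and 304 in tumors 1 to 3, against 258, 218 and 89.4 in WAP-SVT/t glands and 233, 453 and 125 in NMRI glands. Every tumor was above every WAP-SVT/t gland, by little in tumor 3, which was below NMRI gland 2. The log2 difference was 2.56 ± 0.76 from WAP-SVT/t glands (5.89-fold, adjusted p = 0.131) and 2.10 ± 0.76 from NMRI glands (4.27-fold, adjusted p = 0.0715), and neither passed. Without tumor 3 both passed, at 3.42 (adjusted p = 0.0320) and 2.96 (adjusted p = 0.0126). With the sample number as a block over all tissue arrays both also passed (adjusted p = 0.0264 and 0.0114), although nothing ties tumor numbers to gland numbers.

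WAP-SVT/t and NMRI glands overlapped for Igfbp2 (-0.46 ± 0.76, adjusted p = 0.755). The lines read 302 in ME-B-T/t, 34.6 in ME-B and 81.6 in ME-A. ME-B-T/t was just below the lowest tumor, and the other lines were far below it. The difference of lines from tumors, -3.17 ± 0.92 (8.98-fold lower), did not pass (adjusted p = 0.152).

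Igfbp5 gave different accounts by its 2 probe sets. The bright one, 1452114_s_at, read 7535, 4980.4 and 6802 in tumors, against 7921, 8083 and 7882 in WAP-SVT/t glands and 6784, 8297 and 8649.9 in NMRI glands. All tumors were below all WAP-SVT/t glands by a small margin and overlapped with NMRI glands. The difference from WAP-SVT/t glands, -0.33 ± 0.18, did not pass (adjusted p = 0.424), nor did that of tumors from NMRI glands (-0.31 ± 0.18, adjusted p = 0.231), and both changed sign under quantile normalization, at 0.02 and 0.28. WAP-SVT/t and NMRI glands differed by 0.02 ± 0.18 (adjusted p = 0.966).

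The dimmer one, 1422313_a_at, read 266, 508 and 622 in tumors, against 152, 246 and 179.9 in WAP-SVT/t glands and 198, 275 and 128 in NMRI glands. It was called in tumors against NMRI glands (1.20 ± 0.38, 2.30-fold, adjusted p = 0.0442), although tumor 1 was below NMRI gland 2. In tumors against WAP-SVT/t glands it was not (1.21 ± 0.38, adjusted p = 0.155). The call was lost without tumor 2 (1.09, adjusted p = 0.123), tumor 3 (0.95, adjusted p = 0.145), WAP-SVT/t gland 1 (1.20, adjusted p = 0.0556), NMRI gland 1 (1.22, adjusted p = 0.104) or NMRI gland 3 (0.91, adjusted p = 0.146). With the Gapdh ratio as a covariate the value was 0.49 (adjusted p = 0.305). The call was also lost with all 12 arrays in the fit (adjusted p = 0.403), with no filter (adjusted p = 0.121) and under quantile normalization (adjusted p = 0.0582). Over the 12 arrays the 2 probe sets correlated at r = 0.20.

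Between the lines Igfbp5 had the largest difference of the 6 members compared. The bright probe set read 1221 in ME-B-T/t, 102 in ME-B and 9369 in ME-A, and the dimmer one 312, 169 and 5084. ME-A was thus above every tissue array by both, and ME-B was below every tissue array by the bright one. ME-B was 91.8-fold lower than ME-A by the bright probe set and 30.1-fold lower by the dimmer one, while ME-B-T/t was higher than ME-B by 3.58 and 0.89 on the log2 scale. The 11 luminal epithelium markers, at 6.22 in ME-B-T/t, 6.49 in ME-B and 11.12 in ME-A, differed with Igfbp5 between ME-A and the other lines but not between ME-B-T/t and ME-B, and their part was not tested. The lines as a class differed from tumors by -2.59 ± 1.42 (adjusted p = 0.393). Without ME-A, so with ME-B-T/t and ME-B alone, the value was -4.17 and passed (adjusted p = 0.0281). By name and label these lines point to a shared lineage, so their spread may understate that between independent lines. By the dimmer probe set the class difference had the opposite sign and did not pass (0.56 ± 1.18, adjusted p = 0.841).

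Igfbp4, whose product mostly restrains IGF action, was well above the floor in all tissue groups and lower in ME-A. Its probe set 1437405_a_at read 4399, 2062 and 1429 in tumors 1 to 3, against 2898, 4308 and 4626 in WAP-SVT/t glands and 2617, 2244 and 3852 in NMRI glands. All groups overlapped. The difference of tumors from WAP-SVT/t glands was -0.72 ± 0.38 (adjusted p = 0.415), that of tumors from NMRI glands -0.27 ± 0.38 (adjusted p = 0.655) and that of WAP-SVT/t from NMRI glands 0.45 ± 0.38 (adjusted p = 0.510). Over the 5 tested Igfbp4 probe sets, the differences lay between -0.81 and 0.32 in tumors against WAP-SVT/t glands, between -0.27 and 1.38 in tumors against NMRI glands and between 0.45 and 1.06 in WAP-SVT/t against NMRI glands. None passed. The highest of those, 1421992_a_at in tumors against NMRI glands (1.38 ± 0.57, adjusted p = 0.106), passed with the sample number of the glands as a block (adjusted p = 0.0139). This dim probe set followed the main one less closely (r = 0.48) than the bright ones did (r = 0.92 to 0.97).

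**Figure D4:**
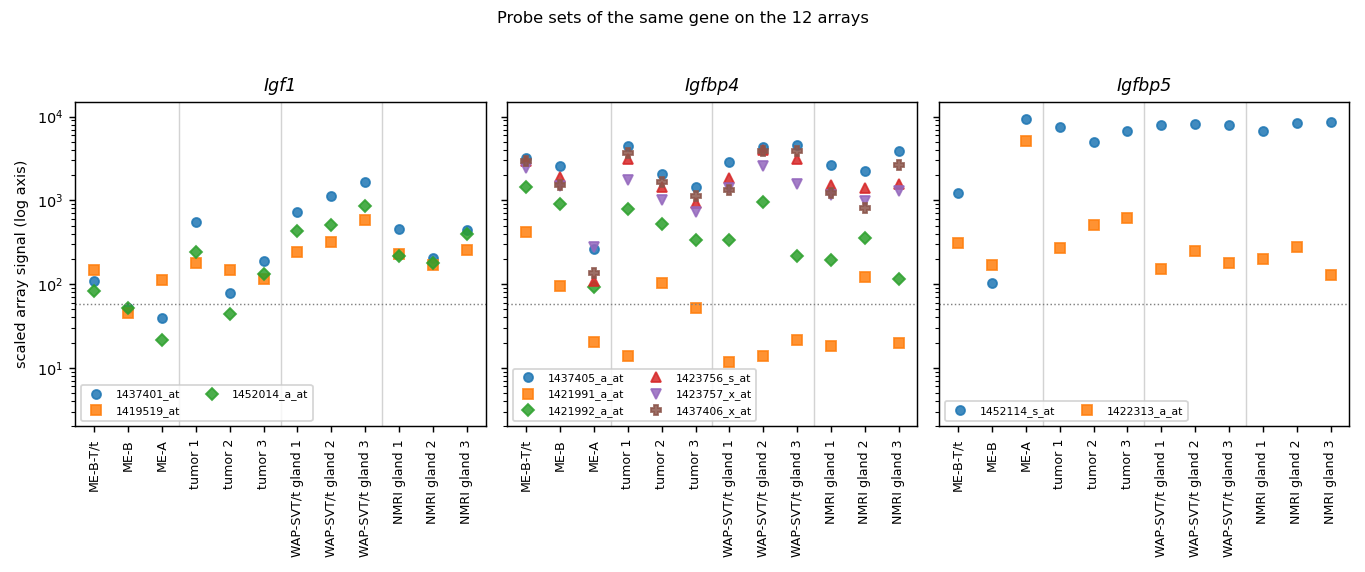
Scaled signal on a log axis (y) of every probe set of Igf1, Igfbp4 and Igfbp5 on the 12 arrays (x), with grey lines between groups and the floor dotted. The 3 Igf1 probe sets move together, the dimmest Igfbp4 probe set is under the floor on most arrays, and both Igfbp5 probe sets are highest in ME-A but order the tissue arrays differently.

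In the lines, 1437405_a_at of Igfbp4 read 3184 in ME-B-T/t, 2578 in ME-B and 262 in ME-A, so that ME-A was below every tissue array and the others were within the tissue range. ME-B was 9.85-fold higher than ME-A, and 5.34-fold to 17.4-fold higher by the 4 other tested probe sets. The fibroblast and matrix markers were at 10.53 in ME-B-T/t, 9.66 in ME-B and 6.86 in ME-A, in the same order as Igfbp4, and their part was not tested. The lines as a class differed from tumors by -0.86 ± 0.94 (adjusted p = 0.677). Without ME-A that value was 0.29.

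Igfbp6, which prefers IGF2 as its ligand, read 296, 114 and 143 in tumors, against 349, 260.2 and 317 in WAP-SVT/t glands and 537, 494 and 183 in NMRI glands. Tumor 1 was within the range of both kinds of gland and tumors 2 and 3 were below all glands. The difference was -1.11 ± 0.45 from NMRI glands (adjusted p = 0.102), -0.86 ± 0.45 from WAP-SVT/t glands (adjusted p = 0.408) and -0.25 ± 0.45 between WAP-SVT/t and NMRI glands (adjusted p = 0.778), with no call. Without tumor 1 the first was -1.51 and passed (adjusted p = 0.0408), as it did without NMRI gland 3 (-1.61, adjusted p = 0.0214). In the lines, where it was not tested, it read 95.8 in ME-B-T/t, 94.7 in ME-B and 51.1 in ME-A.

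Igfbp7, a relative that binds IGFs weakly and is found in vessel walls and matrix, differed little between the tissues. Its probe set 1423584_at read 3502, 2654 and 2355 in tumors, against 2379, 2661 and 3077 in WAP-SVT/t glands and 2502, 1913 and 3266 in NMRI glands, with full overlap. The tissue differences lay between 0.06 and 0.16, each with a standard error of 0.24. In the lines it read 6697 in ME-B-T/t, 3558 in ME-B and 1364 in ME-A. ME-B-T/t and, by little, ME-B were above every tissue array, and ME-A was below every one. The class difference from tumors was 0.19 ± 0.53 (adjusted p = 0.878).

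The lines were also set against each other, without a test, by a difference of 4-fold or more. In ME-B-T/t against ME-B, 2 of 6 compared members were past that size, both higher, beside 1.73% of all 7925 genes compared. These were Igfbp5, with a log2 difference of 3.58, and Igfbp2, which was at least 5.25-fold higher since ME-B was under the floor. In ME-B against ME-A, 3 of 6 were past it, beside 7.27% of all genes: Igfbp4 and Igf1r (4.82-fold) were higher and Igfbp5 was lower. With 1 array per line there is no replicate check. The probe sets that stand for Igf1, Igfbp3 and Igfbp6 were not above the median signal in any line and were not compared. The Igf1 probe set 1419519_at was above it in ME-B-T/t and was 2.59-fold higher there than in ME-B, which was under the floor.

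Around the members, 85 other pathway genes were listed by role. Of these 69 had a probe set and 48 were tested in tissue. In tumors against NMRI glands 4 were higher and 8 lower, beside 23.5% of all genes called, so that the share of pathway genes was near that of all genes. In tumors against WAP-SVT/t glands 1 was higher and 3 lower, beside 2.48% of all genes. In WAP-SVT/t against NMRI glands 0 were higher and 2 lower, beside 9.27% of all genes. With the sample number of the glands as a block, 6 were called there. By the probe sets that stand for them, Ccn1 (1.49, adjusted p = 0.00429) and Ccn2 (1.36, adjusted p = 0.0235) joined as higher. Ccn3 (-1.45, adjusted p = 0.0256) and Stat5a (-0.82, adjusted p = 0.0354) joined as lower. A second Ccn1 probe set, 1438133_a_at, was called in that comparison without the block (1.70 ± 0.39, 3.25-fold higher, adjusted p = 0.0206). The calls over all genes also rose with that block, above the 732 without it. The share of 9.27% is therefore not the one to set beside these 6, and no excess of pathway genes is claimed. In lines against tumors 2 of 46 were higher and 0 lower, beside 2.37% of all genes. The median log2 difference of the tested pathway genes was -0.11 in tumors against NMRI glands, beside 0.03 over all genes. It was -0.01 beside -0.00 in tumors against WAP-SVT/t glands, -0.22 beside 0.01 in WAP-SVT/t against NMRI glands, and 0.15 beside -0.01 in lines against tumors. Listed genes without a probe set of their own were not analysed here. The genes named are at most the 6 with the smallest p in each direction, with every listed ligand, receptor and binding protein.

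Igfals encodes the acid-labile subunit that joins IGFBP3 or IGFBP5 and an IGF in the large complex of blood. It was lower in both WAP-SVT/t groups. It read 85.3, 24.5 and 18.7 in tumors, against 290.4, 224 and 130.2 in WAP-SVT/t glands and 1757, 1030.5 and 1247 in NMRI glands, with no overlap between any groups. Tumors 2 and 3 were under the floor, so the sizes of the tumor differences depend on it. It was 20.0-fold lower in tumors than in NMRI glands (-4.32 ± 0.34, adjusted p = 1.89e-05) and 6.44-fold lower in WAP-SVT/t than in NMRI glands (-2.69 ± 0.34, adjusted p = 0.000709). Between tumors and WAP-SVT/t glands it was 3.11-fold lower (-1.64 ± 0.34, adjusted p = 0.0363). That last call was lost in 7 of 9 fits without 1 array, among them without tumor 2 (-1.54, adjusted p = 0.145), tumor 3 (-1.54, adjusted p = 0.0964) or WAP-SVT/t gland 1 (-1.38, adjusted p = 0.114). It was also lost with no filter (adjusted p = 0.159), with the Gapdh ratio as a covariate (-1.54, adjusted p = 0.147) and with all 12 arrays in the fit (adjusted p = 0.208). Milk secretory markers, at 7.68 to 8.97 in tumors, 11.72 to 12.31 in WAP-SVT/t glands and 13.68 to 13.97 in NMRI glands, moved with it, and their part was not tested.

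Ins2, an insulin gene, was lower than in NMRI glands by 4.89-fold in tumors (adjusted p = 0.000251) and by 4.43-fold in WAP-SVT/t glands (adjusted p = 0.000709). Its signals were 27.6 to 67.7 in tumors and 52.7 to 81.9 in WAP-SVT/t glands, at or near the floor, and 261 to 330.2 in NMRI glands. The sizes of both folds therefore depend on the floor, and Ins2 entered the test only through the 3 NMRI glands. With no filter both calls held (adjusted p = 0.000736 in tumors and 0.00138 in WAP-SVT/t glands). The probe set name ends in x_at, by which the array maker marks probes that may bind other transcripts. Igf2, the second ligand, read 173, 75.8 and 102 in tumors, 161, 165 and 153 in WAP-SVT/t glands and 184, 269.6 and 209 in NMRI glands, with tumors below NMRI glands (-0.99 ± 0.32, 1.98-fold lower, adjusted p = 0.0481). That call was lost in 8 of 9 fits without 1 array, at adjusted p = 0.0511 to 0.154, and held without tumor 1. It was also lost in 8 of 11 other settings, the block on the glands' sample number among them (adjusted p = 0.0547). The insulin receptor gene Insr read 101 to 105 in tumors, 104 to 119.6 in WAP-SVT/t glands and 128 to 147 in NMRI glands, and was too dim to be tested, as were Insrr, Igfbp1, Igfbpl1 and Esm1. Igfbp1, next to Igfbp3 on chromosome 11, was under the floor on all 12 arrays, and Esm1 rose above it in tumor 3 alone, at 231.

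Among genes of hormone signalling upstream, Ghr and Cish were lower and Socs2 higher in tumors than in NMRI glands. Ghr, the growth hormone receptor gene, read 1008, 729 and 972 in tumors, against 1713, 1879 and 3702 in WAP-SVT/t glands and 2053, 2034 and 2373 in NMRI glands. All tumors were below all glands, by 2.40-fold against NMRI glands (adjusted p = 0.0119) and 2.56-fold against WAP-SVT/t glands (adjusted p = 0.0432). The second of these was lost in every fit without 1 array (adjusted p = 0.0565 to 0.175), those without 1 NMRI gland included. It was lost in 6 of 12 other settings as well, at adjusted p = 0.0502 to 0.202. The first was lost with the Gapdh ratio as a covariate (-0.95, adjusted p = 0.0794), as was the second (-1.08, adjusted p = 0.202). A further Ghr probe set, 1451501_a_at, was called against NMRI glands (-1.57 ± 0.45, adjusted p = 0.0294) and not against WAP-SVT/t glands (adjusted p = 0.0717). Another, 1451871_a_at, was called in tumors against neither kind of gland (adjusted p = 0.183 for NMRI and 0.426 for WAP-SVT/t). Stat5a, a transcription factor of prolactin signalling, is outside the naming rule and was picked after its values were seen. By the probe set that stands for it, it was 2.61-fold lower in tumors than in NMRI glands (adjusted p = 0.0322). That call was lost without any 1 of the tumors, NMRI gland 1 or NMRI gland 2 (adjusted p = 0.0672 to 0.122), with no filter (adjusted p = 0.101) and with all 12 arrays in the fit (adjusted p = 0.0548). Its second probe set, 1450259_a_at, was not called in tumors against NMRI glands (-0.69 ± 0.55, adjusted p = 0.399), and these groups overlapped. Cish, a feedback inhibitor that STAT5 switches on, averaged 383 ± 52.3 in tumors and 951 ± 99.4 in NMRI glands (2.49-fold lower, adjusted p = 0.00211). Socs2, an inhibitor of growth hormone signalling, read 511, 416 and 1876 in tumors against 182, 145 and 106 in NMRI glands (5.22-fold higher, adjusted p = 0.00906), and tumor 3 had the largest signal. That call was lost with the Gapdh ratio as a covariate (1.86, adjusted p = 0.0607) and with no filter (adjusted p = 0.0519). A second Socs2 probe set, 1418507_s_at, was called in tumors against NMRI glands too (2.93 ± 0.51, 7.60-fold higher, adjusted p = 0.00266).

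Of the proteases that cut IGF binding proteins and their inhibitors, 10 were tested. Htra1, a secreted serine protease, fell in tumors against WAP-SVT/t glands, with 196 ± 154 in tumors and 709 ± 188 in glands (4.32-fold lower, adjusted p = 0.0464). The call held in 1 of 9 fits without 1 array, the one without tumor 1 (adjusted p = 0.00327), and was lost in the others at adjusted p = 0.0661 to 0.180. It was also lost in 8 of 12 other settings, the block on the glands' sample number among them (adjusted p = 0.0505). A second Htra1 probe set, 1438251_x_at, was called in that comparison too (-2.24 ± 0.49, 4.71-fold lower, adjusted p = 0.0439). By it tumors 2 and 3 read 28.0 and 13.4, under the floor. Stc1, stanniocalcin 1, which inhibits the IGFBP4 protease pappalysin in human and mouse, fell 2.02-fold in tumors against NMRI glands (adjusted p = 0.0225), and the call was lost without tumor 1, tumor 2 or NMRI gland 2 (adjusted p = 0.0667, 0.0628 and 0.0880). Of 4 tested CCN genes, whose products carry a domain like that of IGF binding proteins, Ccn1 and Ccn2 rose in tumors against NMRI glands. Ccn1 was 5.67-fold higher, with 975 ± 73.1 in tumors and 197 ± 133 in NMRI glands (adjusted p = 0.00240). Ccn2 was 3.82-fold higher (adjusted p = 0.0402), a call lost without any 1 of the tumors, NMRI gland 1 or NMRI gland 2 (adjusted p = 0.0610 to 0.130). It was also lost with the Gapdh ratio as a covariate (1.79, adjusted p = 0.130), with no filter (adjusted p = 0.142) and with all 12 arrays in the fit (adjusted p = 0.0659).

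In signal transduction, 24 genes were tested and 2 were called in tissue. Pik3r2, a regulatory subunit of PI3 kinase, averaged 423 ± 80.8 in tumors, 166 ± 36.9 in WAP-SVT/t glands and 187 ± 43.1 in NMRI glands. It was 2.55-fold higher in tumors than in WAP-SVT/t glands (adjusted p = 0.0368) and 2.28-fold higher than in NMRI glands (adjusted p = 0.0128). The first call was lost in 5 of 9 fits without 1 array (without tumor 2 or 3, WAP-SVT/t gland 1 or 3, or NMRI gland 1), at adjusted p = 0.0665 to 0.151. Both were lost with the Gapdh ratio as a covariate, at 0.95 (adjusted p = 0.144) and 0.72 (adjusted p = 0.0806). The first was also lost with no filter, with the filter at the 70th percentile and with all 12 arrays in the fit (adjusted p = 0.131, 0.0629 and 0.0749). Eif4ebp1, a brake on translation that mTOR releases, was 2.22-fold lower in tumors than in NMRI glands (adjusted p = 0.0131), a call lost with that covariate (-0.89, adjusted p = 0.0831). By a second probe set, 1417562_at, Eif4ebp1 was lower than in NMRI glands in tumors (-1.23 ± 0.26, adjusted p = 0.00656) and in WAP-SVT/t glands (-1.09 ± 0.26, adjusted p = 0.0237). By the first, WAP-SVT/t and NMRI glands were not called apart (-0.71 ± 0.27, adjusted p = 0.139).

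In lines against tumors, both tested genes for IGF2 mRNA-binding proteins, which bind the Igf2 message and others, rose. Igf2bp3 read 572 in ME-B-T/t, 652 in ME-B and 448 in ME-A, against 28.6, 80.7 and 72.3 in tumors (2.99 ± 0.27, 7.93-fold, adjusted p = 0.00288). All lines were far above all tumors. Igf2bp1 read 149.8, 463 and 312 in these lines, against 33.9, 46.5 and 36.8 in tumors, all under the floor, and was at least 4.85-fold higher (adjusted p = 0.0438). The Igf2bp1 call was lost without any 1 of the 3 tumors or without ME-B (adjusted p = 0.142 to 0.164), with no filter (adjusted p = 0.176) and with the Gapdh ratio as a covariate (adjusted p = 0.167). Both genes entered the test only through the 3 lines, and with no filter Igf2bp3 passed (adjusted p = 0.0262).

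**Figure D5:**
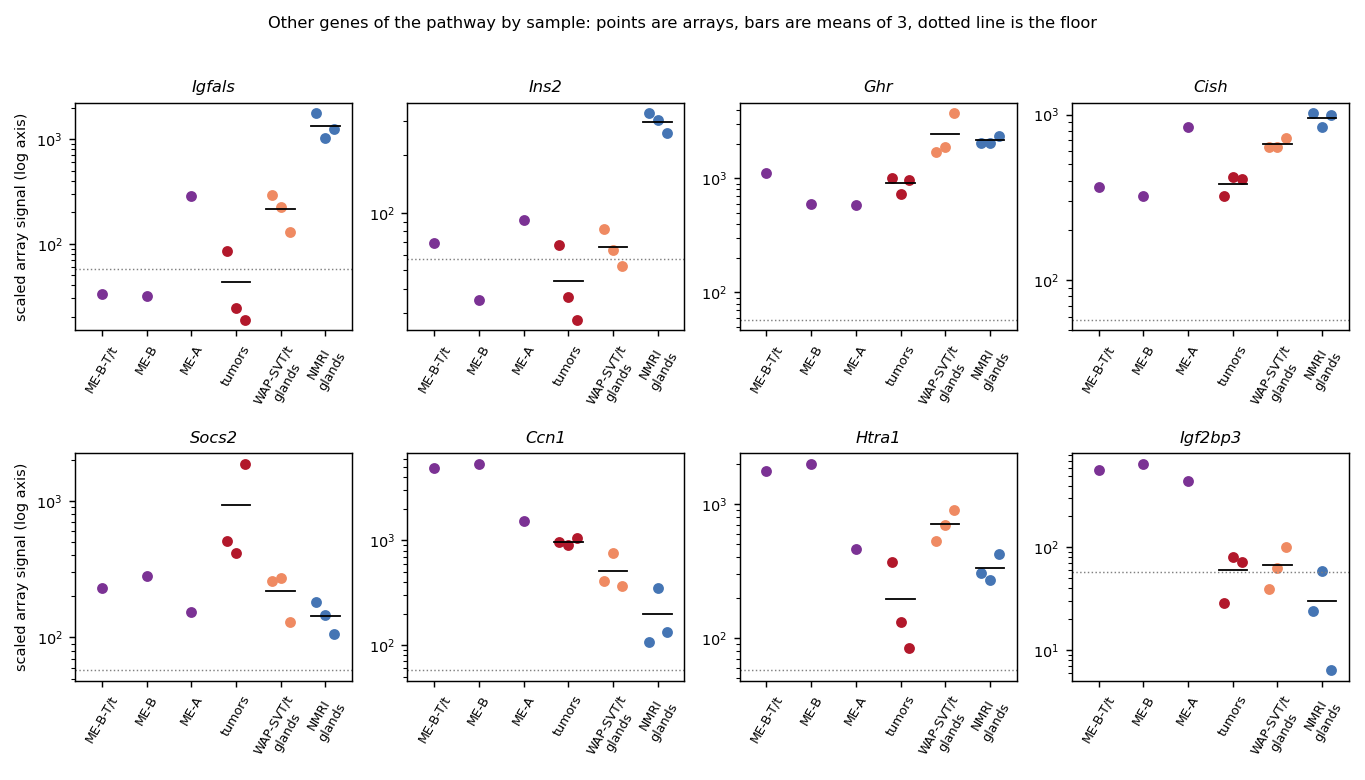
Scaled signal on a log axis (y) of 8 other pathway genes in the 3 lines (1 array each) and 3 tissue groups (3 arrays each). Points are arrays, bars are arithmetic means of 3 and the dotted line is the floor of 57.5. Igfals and Ins2 are highest in NMRI glands, and Igf2bp3 is highest in the lines.

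For each member, the 3 other genes with the highest Pearson r of log2 signal over the 12 arrays were found among 8187 genes above the filter, as a description of arrays that share tissue mixture and scaling. Igf1 was most like C1s1 (r = 0.95), Srpx (0.94) and Cidec (0.94), and Cidec is on the adipocyte marker list. Igfbp3 was most like Col9a2 (0.94), Hs3st1 (0.93) and Ak4 (0.93), and Igfbp2 most like Aig1 (0.87), Tmem216 (0.86) and Pla2g7 (0.84). Igfbp4 was closest to Sparc (0.95), Ttyh2 (0.93) and Svep1 (0.92), and Igfbp7 to Col6a3 (0.96), Mxra8 (0.95) and Sfrp2 (0.92). Sparc is on the fibroblast and matrix marker list. Igfbp5 was closest to Patj (0.93), H2-K1 (0.93) and Celsr2 (0.92). Igfbp6 was closest to Tppp3 (0.94), Tceal8 (0.91) and Myl9 (0.90). Igf1r was closest to Thbs1 (0.92), Frmd6 (0.90) and Ppp1r15a (0.90), and Igf2r to Scand1 (0.93), Rabac1 (0.93) and Ogfod2 (0.91).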

How the data were processed

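Biotin-labelled RNA of 12 samples was hybridised to arrays of 22690 probe sets, 1 array per sample. The authors deposited linear intensity signals computed by MAS5, per the submitters' processing notes. The version and scaling target of MAS5, and a genome build, were not given in the sources used here. No detection calls were used, and arrays carry no read depth.

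Arrays were scaled to the same 2% trimmed mean over probe sets (these means differed by at most 1.19-fold as deposited). A floor at the 30th percentile of all arrays together, 57.5, replaced lower signals before the log2 step. Folds come from values at or above the floor, and are given as at least that size where all arrays of 1 group were at it. Of the probe sets, 64 controls, 691 with several genes and 1555 with none were left out. Of the 20380 with 1 gene, 20351 had a current mouse gene ID. A probe set was tested if at least 3 arrays of the fit were above the pooled median, 139.9.

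Tests used limma 3.58.1 in R 4.3.3 (lmFit, then eBayes with an intensity trend), two-sided, with Benjamini-Hochberg adjustment over all probe sets tested and a threshold of 0.05. One fit held the 9 tissue arrays in 3 groups (6 residual degrees of freedom) and another held the 3 lines and 3 tumors as 2 classes (4 residual degrees of freedom). The lines differ from each other, so that spread is between lines. ME-B and ME-B-T/t share a name, and the labels revertant and retransformed point to a shared lineage. In that case the fit understates the spread between independent lines, and p-values of lines against tumors may be too small. Single lines were compared without a test. The fit was tested on simulated data with known changes. Figures used matplotlib 3.10.9 in Python 3.11.15.

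Sample numbers were checked as pairs. Deviations from the group means correlated at r = 0.236, 0.441 and 0.443 between the WAP-SVT/t and NMRI glands of the same number. The numbers were therefore taken to pair the glands in a block among the alternatives, though no label says so. The main fit held no block, so its p-values are unpaired. The Gapdh ratio also went by number, at 10.7, 2.49 and 22.5 in WAP-SVT/t glands 1 to 3 and 12.9, 2.28 and 40.3 in NMRI glands 1 to 3. The sample numbers did not pair tumors with glands (r = -0.154 to 0.367). The block for the glands alone was added after this check.

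Alternatives were other scalings, floors, filters and fits, the Gapdh ratio as a covariate, the sample number as a block, and leaving out each array. The 9 members, the pathway and marker lists and the naming rule were chosen with earlier results of these data known. The genes named were all members and, of the pathway lists, called genes (at most the 6 with the smallest p in each direction and comparison) and every ligand, receptor and binding protein.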

Additional observations from a re-analysis of the deposited data

How the results depend on the processing

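Of 1711 values of single genes under an alternative, 1528 kept their direction and their side of the threshold, 108 lost a call, 21 gained one and 54 changed sign. With 3 arrays per group, and only 1 per line, single arrays decided many calls, and signals under the floor have no order. 

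The Igfbp3 calls against both kinds of gland held in every setting that kept its probe set, most of which kept it only because the tumors were above the filter. With the filter at the 70th percentile Igfbp3 was left untested, so the members called were 0 in tumors against WAP-SVT/t glands, 0 in tumors against NMRI glands and 0 in lines against tumors. With no filter the count in lines against tumors was 0. All genes called in lines against tumors were 94 with the 70th percentile filter and 86 with no filter, against 174 as reported. With the Gapdh ratio as a covariate the members called were 1 in WAP-SVT/t against NMRI glands (Igf1), 2 in tumors against NMRI glands (Igfbp3 and Igf2r) and 0 in lines against tumors. All genes called with that covariate were 967 in WAP-SVT/t against NMRI glands (732 as reported) and 55 in lines against tumors (174). With the 12 arrays fitted as 4 classes the members called were 2 in lines against tumors (Igfbp2 joined), beside 412 of all genes. With the replicate block, that is the sample number over all tissue arrays, the members called were 2 in tumors against WAP-SVT/t glands and 2 against NMRI glands (Igfbp2 joined both). With that block for the glands only, chosen after seeing the data, they were 0, 1 and 1 in the 3 tissue comparisons, as without it. It changed the calls of Igf1, Igfbp4, Htra1 and Igf2 probe sets given above. It also added Ccn1, Ccn2, Ccn3 and Stat5a in WAP-SVT/t against NMRI glands, where the calls over all genes rose as well. No paired analysis was possible for lines against tumors because the lines carry no numbers.

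Leaving out each array in turn gave 0 to 1 called members in WAP-SVT/t against NMRI glands, 1 to 2 in tumors against WAP-SVT/t glands, 1 to 2 in tumors against NMRI glands and 0 to 3 in lines against tumors, with 3 without ME-A. Over all genes it gave 63 to 211 in tumors against WAP-SVT/t glands (196 as reported), 1162 to 2131 in tumors against NMRI glands (1856), 369 to 728 in WAP-SVT/t against NMRI glands (732) and 56 to 734 in lines against tumors (174), with 734 without ME-A. The other settings gave 53 to 273, 1395 to 2174, 643 to 967 and 55 to 412 in the same order. Other pathway genes called were 0 to 3, 8 to 11, 2 to 3 and 1 to 10 without 1 array, and 0 to 4, 6 to 12, 2 to 6 and 1 to 5 in the other settings.

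All changes of sign were of differences that had not passed, and the cause was not tested. With the Gapdh ratio as a covariate, signs turned in tumors against WAP-SVT/t glands for Igf2r 1424112_at (-0.44) and Igfbp4 1421992_a_at (-0.37) and 1437406_x_at (0.15), and in tumors against NMRI glands for Igf1 1437401_at (0.17) and Igfbp4 1437405_a_at (0.28) and 1423757_x_at (0.11). In lines against tumors they turned for Igf2r 1424112_at (-0.58) and 1424111_at (0.06) and Igfbp4 1421992_a_at (0.15) and 1423757_x_at (0.19). Quantile normalization turned Igfbp5 1452114_s_at in tumors against WAP-SVT/t glands (0.02) and NMRI glands (0.28), and Igfbp4 1421992_a_at in lines against tumors (0.01). With signals as deposited, Igf2r 1424112_at (0.05) and Igfbp4 1423757_x_at (0.01) turned in tumors against NMRI glands, and Igfbp5 1422313_a_at (0.09) in WAP-SVT/t against NMRI glands.

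Leaving out single arrays gave ranges that crossed or reached 0 as follows. In lines against tumors, Igf2r 1424111_at ranged from -0.63 to 0.22 and 1424112_at from -0.46 to 0.24, Igfbp4 1421992_a_at from -0.85 to 1.13, 1423756_s_at from -1.83 to 0.55, 1423757_x_at from -0.74 to 0.82, 1437405_a_at from -1.52 to 0.29 and 1437406_x_at from -2.08 to 0.15, Igfbp5 1422313_a_at from -0.93 to 1.52 and Igfbp7 1423584_at from -0.34 to 0.80. In tumors against NMRI glands, Igf2r 1424111_at ranged from -0.29 to 0.00 and 1424112_at from -0.56 to 0.45, Igfbp4 1423756_s_at from -0.35 to 0.53, 1423757_x_at from -0.41 to 0.22, 1437405_a_at from -0.72 to 0.09 and 1437406_x_at from -0.01 to 0.93, and Igfbp7 1423584_at from -0.03 to 0.35. In tumors against WAP-SVT/t glands, Igfbp4 1421992_a_at ranged from -0.15 to 0.93, Igfbp7 1423584_at from -0.11 to 0.18 and Ins2 1422446_x_at from -0.25 to 0.00. In WAP-SVT/t against NMRI glands, Igfbp2 1454159_a_at ranged from -0.92 to 0.01, Igfbp5 1422313_a_at from -0.31 to 0.25 and 1452114_s_at from -0.09 to 0.09, Igfbp6 1417933_at from -0.75 to 0.03 and Igfbp7 1423584_at from -0.09 to 0.30.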
